A study of Mus musculus with 6 samples.

Results

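The 10 genes described here encode the calcium pumps, release channels, store sensors and entry channels that fill, empty and refill the endoplasmic reticulum (ER): the SERCA pumps Atp2a2 and Atp2a3, the inositol trisphosphate (IP3) receptors Itpr1, Itpr2 and Itpr3, the store sensors Stim1 and Stim2, and the plasma membrane channels Orai1, Orai2 and Orai3. They were taken by symbol from a table of 54532 genes, and each symbol matched 1 row. RNA was sequenced from mouse cells labelled as primary lung fibroblasts, in 3 libraries with calumenin knockdown (KD) and 3 called NC. The sample descriptions name the same libraries KO and WT. The sources used here do not give the strain, age or passage of the cells, the agent that lowered calumenin or the meaning of NC. No label ties a replicate to a culture or animal of its own, so p-values measure only the spread between these libraries, which may be technical.

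As background, SERCA pumps use ATP to move calcium out of the cytosol into the ER, and IP3 receptors are channels in the ER membrane that release it when a surface receptor activates phospholipase C. STIM proteins span the ER membrane, sense the fall in stored calcium through a luminal EF hand, and gather at contacts with the plasma membrane, where they open ORAI channels, a process called store-operated calcium entry. Calumenin is a calcium-binding protein of the ER lumen and secretory pathway. In fibroblasts, calcium released from the ER takes part in signalling by growth factors and in contraction.

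The libraries held 15907164 to 18312888 reads assigned to genes, recovered from the deposited FPKM (fragments scaled by gene length and library size). Calu itself had 14.6, 12.6 and 13.1 FPKM in KD1, KD2 and KD3, against 220, 227 and 225 FPKM in NC1, NC2 and NC3. Of 9 fibroblast markers 6 had a mean of at least 1 FPKM, with summed levels of 1322 to 1363 FPKM in KD and 1198 to 1248 FPKM in NC, whereas Thy1 (0.104 FPKM in KD and 0.126 in NC) was near 0, Dcn was at 0 in KD and 0.0108 FPKM in NC, and Lum had 0 reads. The 6 markers at or above 1 FPKM moved both ways. By the test described below, Col1a1 (284 FPKM in KD and 149 in NC) and Pdgfra (11.2 and 7.05) were higher in KD. Col3a1 (10.9 and 24.6) and Pdgfrb (30.3 and 36.9) were lower, and Col1a2 and Vim did not pass. Of 6 smooth muscle and pericyte markers, Cspg4 (49.3 FPKM in KD and 50.3 in NC) and Des (5.69 and 6.67) reached 1 FPKM. Of 3 mesothelial markers only Msln did (12.4 and 14.2). KD1 stood apart from the other KD libraries. Its chi-square statistic per degree of freedom on reads per gene was 15.7 against KD2 and 25.9 against KD3, compared with 4.15 between KD2 and KD3 and 2.26 to 3.03 between NC pairs. Its mitochondrial share of reads was 2.56%, compared with 1.60% to 1.97% in the other libraries. Across genes, which are not independent replicates, the deviation of a library from the mean of all 6 had a Spearman rho with GC content of -0.41 in KD1, 0.34 in KD2, 0.49 in KD3 and -0.24 to -0.04 in NC. In bulk RNA a lower share of cells with a transcript and less of it per cell cannot be told apart.

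Of the 10 genes 3 passed the test, 1 as higher and 2 as lower in KD. Itpr2 fell to 34.5% of its NC level, Itpr1 fell to 72.9%, and Orai3 rose to 125% of NC. Both SERCA pumps, Itpr3, both STIM sensors, Orai1 and Orai2 did not pass. The test was limma on log2(FPKM + 1) with Benjamini-Hochberg adjustment over 12299 genes whose mean reached 1 FPKM, a filter that all 10 members passed, and a call is an adjusted p under 0.05. Of all tested genes 24.5% were called, 10.9% as higher in KD and 13.6% as lower, so 3 of 10 members, or 30%, is close to the background. The median log2 difference was -0.01 over the 10 members and 0.01 over all tested genes. KD and NC values did not overlap for 6 members, 3 above NC and 3 below, beside 44.2% of all tested genes without overlap (21.3% above and 22.9% below). Without KD1, 2 members passed as higher and 3 as lower, against 42.4% of all tested genes called in either direction, 20.9% as higher and 21.5% as lower. With voom on recovered reads 5 members passed, 3 higher and 2 lower, against 28.1% of all tested genes, 14.9% higher and 13.2% lower. Voom took the sum of recovered reads as library size. The sizes implied by the deposited FPKM were 1.01 to 1.02 times that sum in KD and 0.987 to 0.996 times in NC. This scaling by itself moves every gene upward in KD relative to limma.

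**Figure D1:**
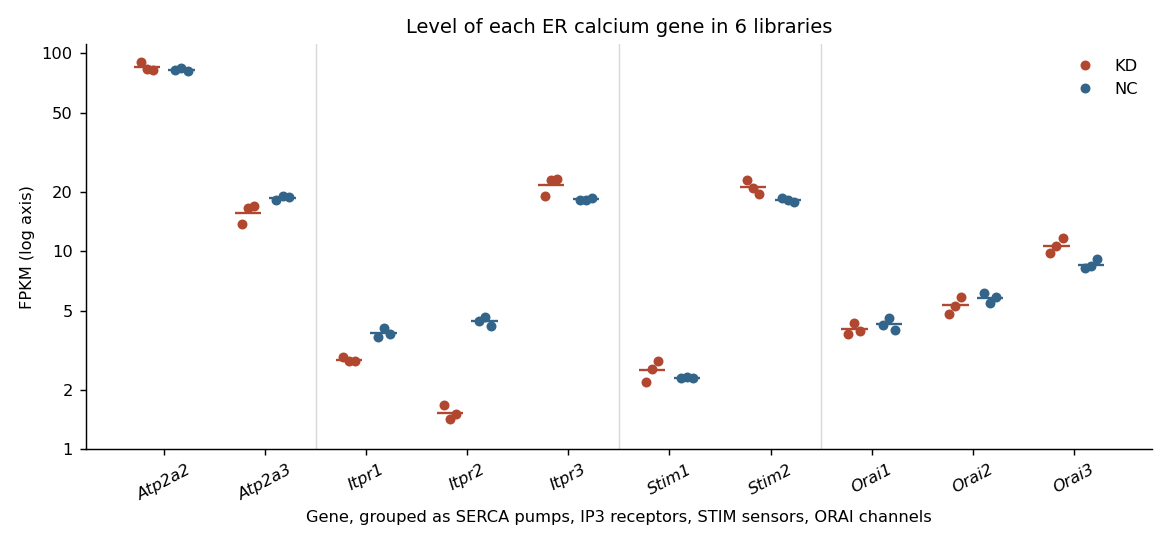
FPKM of the 10 genes in the 3 KD and 3 NC libraries on a log axis, with a point per library and a line at each group mean. Itpr2 shows the widest gap between the groups, with 1.43 to 1.67 FPKM in KD and 4.21 to 4.65 FPKM in NC.

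Atp2a2, which encodes the pump of most non-muscle cells and of the heart, was the most abundant member. It had 90.4, 83.2 and 81.9 FPKM in KD1, KD2 and KD3, against 81.9, 84.0 and 81.7 FPKM in NC1, NC2 and NC3. The groups overlapped and only KD1 stood above all NC libraries. The log2 difference was 0.04 (95% interval -0.09 to 0.18, limma adjusted p = 0.614). Its 26982 reads over the KD libraries and 23991 over the NC libraries make it the most deeply read of the 10 genes.

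Atp2a3 encodes the SERCA3 pump, best known from blood cells, endothelium and secretory epithelia. It had 13.7, 16.5 and 16.8 FPKM in KD1, KD2 and KD3, against 18.2, 19.0 and 18.7 FPKM in NC1, NC2 and NC3. Every KD value lay below every NC value, with KD1 the lowest. The log2 difference was -0.24 (SE 0.08) and did not pass (limma adjusted p = 0.0838), but without KD1 it passed at a smaller difference of -0.15 (adjusted p = 0.0284). Summed levels of 5 endothelial markers were 0.128 to 0.183 FPKM in KD and 0.148 to 0.196 FPKM in NC, and those of 8 macrophage and leukocyte markers were 3.19 to 4.98 FPKM in KD and 4.76 to 5.60 FPKM in NC. Of these 8 Cd68 (2.74 FPKM in KD and 3.71 in NC) and Lyz2 (1.47 in KD and 1.48 in NC) had a mean of at least 1 FPKM, Ptprc had 0.00659 FPKM in KD and 0.00908 in NC, and Adgre1 had 0 reads. Their part in the Atp2a3 difference was not tested. The 2 pumps together had 101 ± 2.86 FPKM in KD and 101 ± 1.58 FPKM in NC (SD, n = 3 each), and Atp2a3 made up 15.6% of that sum in KD and 18.4% in NC.

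The 3 IP3 receptors had close mean summed levels in the groups but different makeups. The sum was 26.1 ± 2.06 FPKM in KD and 26.6 ± 0.36 FPKM in NC (SD, n = 3 each). It was 23.7, 27.0 and 27.5 FPKM in KD1, KD2 and KD3, against 26.2, 26.9 and 26.7 FPKM in NC1, NC2 and NC3. KD1 was thus below all NC libraries and KD2 and KD3 above them. The part of GC content in these sums was not tested. Itpr3 supplied 83.2% ± 2.17 of it in KD and 68.8% ± 1.24 in NC. Itpr1 supplied 10.9% ± 1.20 in KD and 14.5% ± 0.65 in NC, and Itpr2 5.93% ± 0.98 in KD and 16.7% ± 0.80 in NC. Shares between genes rest on the deposited gene lengths, which equal or nearly equal the union of annotated exons. These lengths were 18319 bases for Itpr1, 14802 for Itpr2 and 8990 for Itpr3. Which transcript forms were expressed was not tested. The 3 channels share their basic design of a tetramer gated by IP3 and calcium, and Itpr2 is known as the most sensitive of them to IP3.

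**Figure D2:**
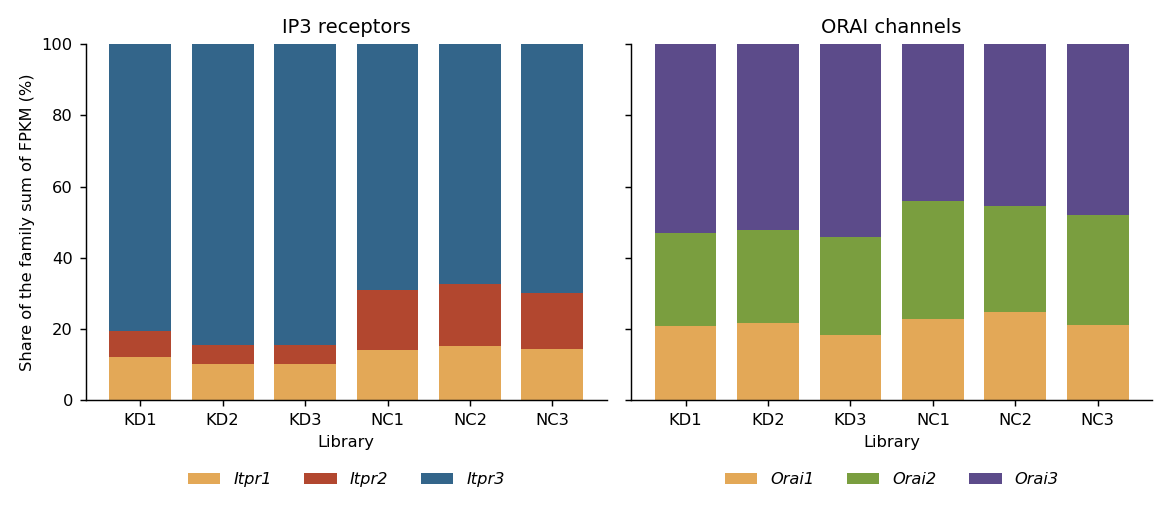
Share of each gene in the summed FPKM of the IP3 receptors (left) and ORAI channels (right), a stacked bar for each library, KD then NC. Itpr2 takes 5.28% to 7.06% of the receptor sum in KD libraries and 15.8% to 17.3% in NC libraries, while Orai3 takes 52.3% to 54.2% of the channel sum in KD and 44.1% to 48.1% in NC.

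Itpr2 (ENSMUSG00000030287) lies on the minus strand of chromosome 6 at 146108299 to 146502223 (mm10), a gene of 63 exon blocks in GENCODE M21. It had 1.67, 1.43 and 1.50 FPKM in KD1, KD2 and KD3, against 4.47, 4.65 and 4.21 FPKM in NC1, NC2 and NC3. All KD values were far below all NC values, and the 3 libraries of each group lay close together. The log2(FPKM + 1) difference was -1.10 (SE 0.08), with a limma adjusted p = 0.000288. It rested on 1184 reads in KD and 3144 in NC. The pseudocount understates the change of a gene at this level, and voom on the recovered reads gave -1.49. Only 2.30% of tested genes had a larger absolute difference. Itpr2 passed in all 17 alternative analyses that could test it, with adjusted p between 6.46e-06 and 0.00391. Among them, median-of-ratios scaling could change almost nothing, as its factor was 1.0037 in all 6 libraries.

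Itpr1 (ENSMUSG00000030102), the form that dominates in neurons, lies on the plus strand of the same chromosome at 108213096 to 108551109. It had 2.91, 2.78 and 2.78 FPKM in KD1, KD2 and KD3, against 3.69, 4.12 and 3.82 FPKM in NC1, NC2 and NC3. The groups did not overlap, and the KD libraries were closer together than the NC libraries. The log2 difference was -0.35 (SE 0.07, limma adjusted p = 0.0153). The call was lost without KD2 (adjusted p = 0.0634), without NC2 (0.0732) or without NC3 (0.0586).

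Itpr3 (ENSMUSG00000042644, chromosome 17 at 27057304 to 27122223, plus strand), the form best known from epithelia, was the receptor with the highest level. It had 19.1, 22.8 and 23.2 FPKM in KD1, KD2 and KD3, against 18.1, 18.2 and 18.6 FPKM in NC1, NC2 and NC3. KD2 and KD3 were well above the NC libraries, while KD1 was just above the highest of them. The log2 difference was 0.23 (SE 0.08) and did not pass (limma adjusted p = 0.0856). Without KD1 it was 0.32 and passed (limma adjusted p = 0.00211). Voom on all 6 libraries, whose scaling moves every gene upward in KD, gave 0.28 with an adjusted p = 0.0379.

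Ratios within a library compare the receptors with each other. Here and below they were taken on FPKM + 1, which draws low genes toward the others. The log2 ratio of Itpr2 over Itpr3 was -2.91, -3.29 and -3.27 in KD1, KD2 and KD3, against -1.80, -1.76 and -1.92 in NC1, NC2 and NC3. That is a difference of -1.33, with no overlap between the groups. On recovered reads the difference was -1.78. The ratio of Itpr1 over Itpr2 was 0.60 ± 0.05 in KD and -0.16 ± 0.06 in NC (SD, n = 3 each), a difference of 0.75. In FPKM the order of these 2 genes was thus opposite in the groups, which rests on the deposited gene lengths. In reads Itpr1 was above Itpr2 in both groups (2693 and 1184 in KD, 3392 and 3144 in NC). Itpr1 over Itpr3 differed by -0.58. Of the 8 pairs compared within families, 6 had no overlap between KD and NC and reached an exact two-sided permutation p = 0.1, the smallest that 3 against 3 libraries allow, with a Benjamini-Hochberg adjusted p = 0.133.

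The upstream sequences of the receptor that fell furthest, of the receptor with the highest level and of the ORAI gene that rose are shown so that their base composition and motifs can be compared. They are the 250 bases before the RefSeq start site in GRCm38.p6, the assembly that mm10 names, 5′ to 3′ on the gene's strand, with motif matches in capitals. The table of promoters held 8 of the 10 members, and Atp2a2 and Itpr1 had no entry.
Itpr2, chr6:146502224-146502473, minus strand: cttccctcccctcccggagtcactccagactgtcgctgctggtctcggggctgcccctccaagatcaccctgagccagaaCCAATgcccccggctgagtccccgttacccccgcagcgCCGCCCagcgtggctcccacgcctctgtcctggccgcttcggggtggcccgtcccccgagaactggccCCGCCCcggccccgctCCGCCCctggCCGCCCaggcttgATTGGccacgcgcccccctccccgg
Itpr3, chr17:27057054-27057303, plus strand: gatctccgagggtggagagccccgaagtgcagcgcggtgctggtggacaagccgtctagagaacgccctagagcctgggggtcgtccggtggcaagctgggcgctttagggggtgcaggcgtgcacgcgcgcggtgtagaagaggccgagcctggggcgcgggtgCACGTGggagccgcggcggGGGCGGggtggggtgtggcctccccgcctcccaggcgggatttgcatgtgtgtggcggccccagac
Orai3, chr7:127769565-127769814, plus strand: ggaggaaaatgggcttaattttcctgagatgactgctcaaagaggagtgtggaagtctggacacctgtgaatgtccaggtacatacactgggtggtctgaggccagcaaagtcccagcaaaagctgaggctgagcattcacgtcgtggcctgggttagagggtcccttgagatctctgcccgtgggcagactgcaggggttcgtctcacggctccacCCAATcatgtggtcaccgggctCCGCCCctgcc

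Both strands were searched for the GC box (GGGCGG), the CCAAT box (CCAAT), the E-box (CACGTG), the TATA box (TATAAA), the cAMP response element (TGACGTCA), the ER stress response element (which contains the CCAAT box) and the core of the interferon-stimulated response element. The Itpr2 window held 4 GC boxes and 2 CCAAT boxes, the Itpr3 window 1 GC box and 1 E-box, and the Orai3 window 1 GC box and 1 CCAAT box. All 8 member windows held at least 1 GC box, a motif present in 32.7% of the 32851 promoter windows in the table. CCAAT boxes were present in 33.9% of all windows and E-boxes in 6.02%. The last 4 motifs matched none of the 8 windows, and in all windows they occurred in 12.4%, 1.55%, 0.113% and 2.98%. GC content was 74.4% for Itpr2, 72.0% for Itpr3 and 57.2% for Orai3. It was 57.2% to 78.4% over the 8 member windows, with a median of 52.4% over all windows. The shares over all windows were not matched for GC content, so no excess of GC boxes can be read from them. These matches describe letters only and no binding was measured.

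Itpr1 and Itpr2 share chromosome 6 with Calu, and tested genes of that chromosome had a median log2 difference of -0.22, the lowest among the assembled chromosomes. Of its 598 tested genes 205 were lower in KD and 25 higher, and 13 fell further than Itpr2 while 185 fell further than Itpr1. Within 2 Mb of the Itpr2 start site, 20 other genes were tested, with a median of -0.24 and values between -0.68 and 0.43, so Itpr2 lay outside the range of its neighbours. Within 2 Mb of Itpr1, 9 genes were tested with a median of -0.31, and Itpr1 lay within their range of -0.61 to 0.33. With each chromosome's median removed, the difference was -0.89 for Itpr2, which still passed (limma adjusted p = 0.000698), and -0.13 for Itpr1, which did not (0.234). After that step 0 members were higher and 1 was lower, against 19.7% of all tested genes called, 8.74% as higher and 11% as lower. Orai3, on chromosome 7, had 85 tested neighbours with a median of 0.16.

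**Figure D3:**
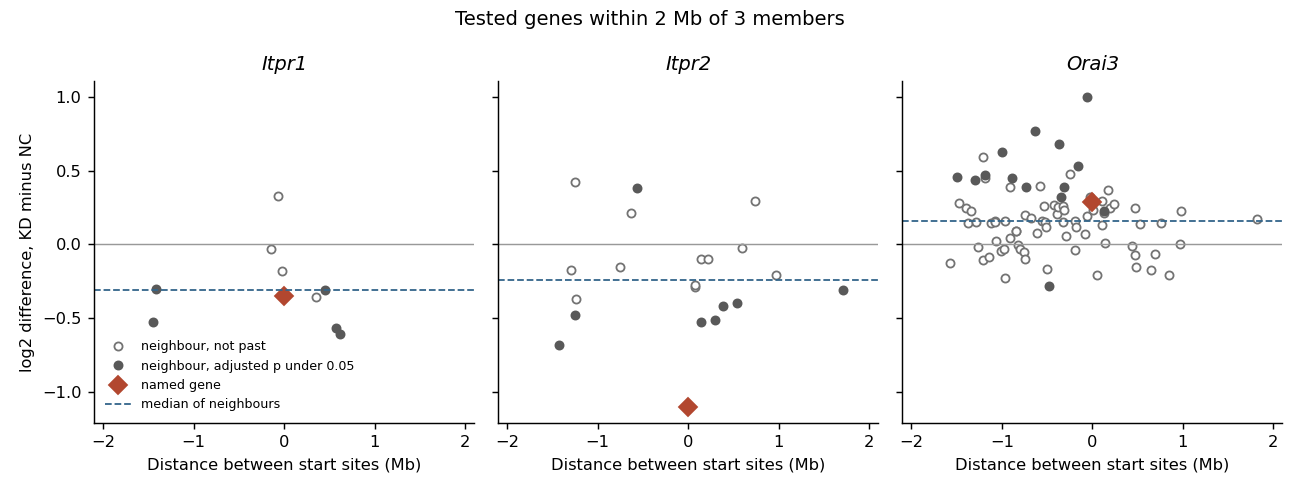
Log2 difference between KD and NC of tested genes within 2 Mb of the start sites of Itpr1, Itpr2 and Orai3, against the distance between start sites, with positive distances toward higher coordinates and the median of the neighbours dashed. Itpr2 at -1.10 lies below all 20 of its neighbours, whereas Itpr1 at -0.35 and Orai3 at 0.28 lie within the range of theirs.

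Among all tested protein-coding genes, those with the pattern over the 6 libraries most like that of Itpr2 were Itga6, an integrin chain, Ccl7, a chemokine, and Farsb, a subunit of the phenylalanyl-tRNA synthetase. Likeness was the root mean square distance between log2(FPKM + 1) values after each gene was centred at its own mean, and it came to 0.03, 0.04 and 0.04 log2 units. Itga6 averaged 8.60 FPKM in KD and 19.6 FPKM in NC, Ccl7 73.1 in KD and 159 in NC, and Farsb 11.1 in KD and 24.1 in NC. In FPKM these genes stood at 43.9%, 46.0% and 46.2% of NC, whereas Itpr2 stood at 34.5%. The pseudocount shrinks the change of Itpr2 more than theirs, so the likeness depends partly on that scale. The 3 genes lie on chromosomes 2, 11 and 1.

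The store sensors were higher on average in KD without passing the test. Stim2, the sensor with the lower calcium affinity that responds to small losses of stored calcium, had 23.0, 20.7 and 19.4 FPKM in KD1, KD2 and KD3, against 18.6, 18.1 and 17.8 FPKM in NC1, NC2 and NC3. Every KD value was above every NC value, KD1 by the most. The log2 difference was 0.20 (SE 0.07, limma adjusted p = 0.0902). Voom, with its upward scaling of KD, gave 0.25 with an adjusted p = 0.0361. Stim1, the sensor that drives entry after larger depletion, had 2.19, 2.54 and 2.78 FPKM in KD1, KD2 and KD3, against 2.29, 2.32 and 2.29 FPKM in NC1, NC2 and NC3. KD1 was below the NC libraries and KD2 and KD3 above them. Its log2 difference was 0.08 (95% interval -0.14 to 0.30, limma adjusted p = 0.546). Stim2 made up 89.3% of the summed STIM level in KD and 88.8% in NC, and the ratio of Stim1 over Stim2 overlapped between the groups (exact permutation p = 0.6).

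Of the channels, Orai3 rose while Orai1 and Orai2 did not pass. Orai3 (ENSMUSG00000043964, chromosome 7 at 127769815 to 127775150, plus strand), a mammalian-specific form, had 9.79, 10.6 and 11.7 FPKM in KD1, KD2 and KD3, against 8.20, 8.41 and 9.11 FPKM in NC1, NC2 and NC3. The groups did not overlap, but KD1 and NC3 were close. The log2 difference was 0.28 (SE 0.08, limma adjusted p = 0.0406), from 1185 reads in KD and 877 in NC. This call was lost without KD2 (adjusted p = 0.115), KD3 (0.0882), NC1 (0.140), NC2 (0.134) or NC3 (0.0727), and with chromosome medians removed (0.118), and it passed without KD1 (0.0102).

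Orai1, the pore subunit best known from store-operated entry in T cells, had 3.84, 4.37 and 3.97 FPKM in KD1, KD2 and KD3, against 4.26, 4.58 and 3.99 FPKM in NC1, NC2 and NC3. The groups overlapped, and the log2 difference was -0.06 (95% interval -0.25 to 0.13, limma adjusted p = 0.608). With 145 to 167 reads a library Orai1 was the least deeply read member. Orai2 had 4.83, 5.28 and 5.88 FPKM in KD1, KD2 and KD3, against 6.14, 5.48 and 5.85 FPKM in NC1, NC2 and NC3, again with overlap, and a log2 difference of -0.11 (95% interval -0.31 to 0.09, limma adjusted p = 0.368). Relative to its family, Orai3 supplied 53.2% ± 0.96 of the summed ORAI level in KD and 45.9% ± 2.02 in NC (SD, n = 3 each). On FPKM + 1, the log2 ratio of Orai2 over Orai3 was -0.88 ± 0.00461 in KD and -0.49 ± 0.11 in NC. That of Orai1 over Orai3 was -1.21 ± 0.13 in KD and -0.86 ± 0.14 in NC. Both were without overlap (exact permutation p = 0.1, the smallest possible).

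**Figure D4:**
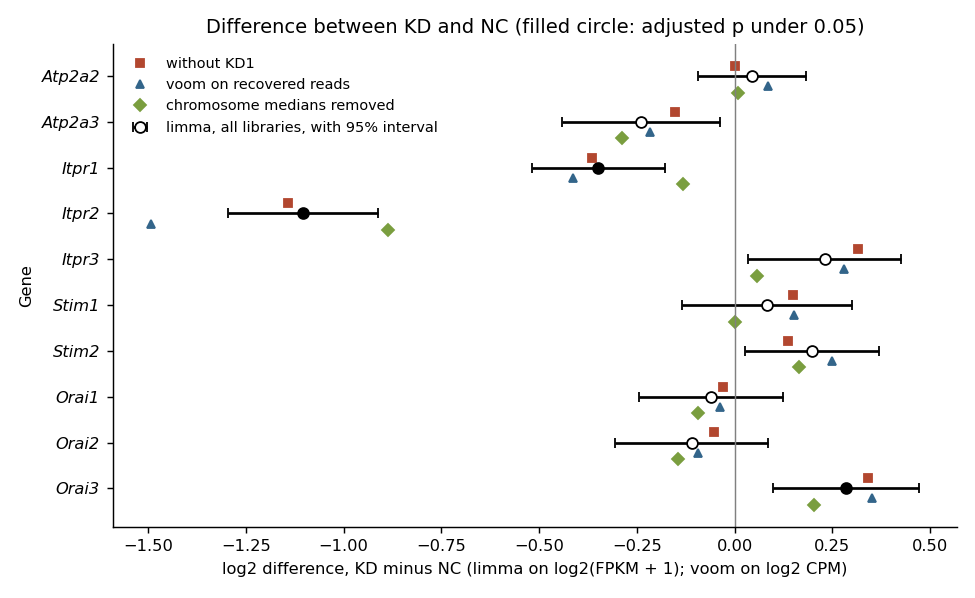
Log2 difference between KD and NC for each gene from limma on all 6 libraries, with its 95% interval (filled where the adjusted p is under 0.05), beside the values without KD1, from voom on recovered reads and with chromosome medians removed. Itpr2 lies between -1.49 and -0.89 over the 4 analyses, and the other 9 genes lie between -0.41 and 0.35.

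By level per kilobase, the order in KD was Atp2a2, Itpr3, Stim2, Atp2a3, Orai3, Orai2, Orai1, Itpr1, Stim1 and Itpr2. The library ranges of Itpr3 and Stim2 overlapped, as did those of Itpr1 and Stim1, and those of the other neighbours did not. In NC the order was Atp2a2, Atp2a3, Itpr3, Stim2, Orai3, Orai2, Itpr2, Orai1, Itpr1 and Stim1, with Atp2a3, Itpr3 and Stim2 overlapping in turn, and Itpr2, Orai1 and Itpr1 likewise. Itpr2 was thus seventh in NC and last in KD. The order between genes also rests on the deposited gene lengths.

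The place of KD1 among the KD libraries went with GC content in all 10 genes. The 6 members with a GC content of at least 54% (Atp2a3, Itpr3, Stim1, Orai1, Orai2 and Orai3) were each lowest in KD1 among the KD libraries, as were 81.5% of all tested genes of that class. The 4 under 50% (Atp2a2, Itpr1, Itpr2 and Stim2) were each highest in KD1, as were 67.0% of all tested genes of that class. These limits were chosen after the values were seen. With a trend on GC content and length removed, 6 of the 10 passed, against 37.2% of all tested genes (18.4% higher and 18.7% lower): Itpr2 (-1.08), Itpr1 (-0.32) and Atp2a3 (-0.33) as lower, and Stim2 (0.26), Orai3 (0.23) and Itpr3 (0.13) as higher.

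Around these genes, 11 lists of other calcium-handling genes held 119 genes, of which 70 were tested, 10 were higher in KD and 16 were lower, or 37.1% called beside 24.5% of all tested genes. Counts on single lists below stand beside 10.9% of all tested genes higher and 13.6% lower. Without KD1 these shares were 20.9% and 21.5%, and with voom 14.9% and 13.2%. Several muscle forms were near 0. The muscle pump Atp2a1 had 0.142 FPKM in KD and 0.138 in NC, the ryanodine receptors Ryr1, Ryr2 and Ryr3 had 9, 13 and 4 reads in KD and 13, 31 and 2 in NC, the SERCA inhibitors Pln and Sln had 0 reads, and the 7 TRPC channels had at most 5 reads in either group. Of 4 tested SERCA regulators, Tmx1, a redox enzyme of the ER membrane, rose (57.6 ± 9.21 FPKM in KD and 39.4 ± 1.61 in NC, limma adjusted p = 0.0162) and Srl, sarcalumenin, fell (5.09 in KD and 6.56 in NC, adjusted p = 0.0149). Without NC1, NC2 or NC3 neither was called, and without KD1 there were 2 higher and 2 lower.

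Among genes of mitochondrial calcium uptake, 5 of 10 fell and 0 rose, with a median log2 difference of -0.32. Of all tested genes 13.6% were lower and 10.9% higher. The same count on the list held in each of the 6 analyses without 1 library and with voom. The share of all tested genes called lower was 21.5% without KD1 and 13.2% with voom. Mcu, the pore of the uniporter, averaged 5.04 ± 0.42 FPKM in KD and 7.77 ± 0.31 FPKM in NC, a log2 difference of -0.54 (limma adjusted p = 0.00342). Its regulator Mcur1 had 5.96 ± 0.34 FPKM in KD and 9.95 ± 1.16 in NC, and the dominant-negative subunit Mcub 13.4 ± 1.33 in KD and 18.9 ± 0.91 in NC. Vdac2, a channel of the outer membrane, had 39.2 ± 0.89 FPKM in KD and 62.7 ± 0.66 in NC, a log2 difference of -0.66 (adjusted p = 0.000288). Vdac1 and Vdac3, of the same channel family, did not pass.

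**Figure D5:**
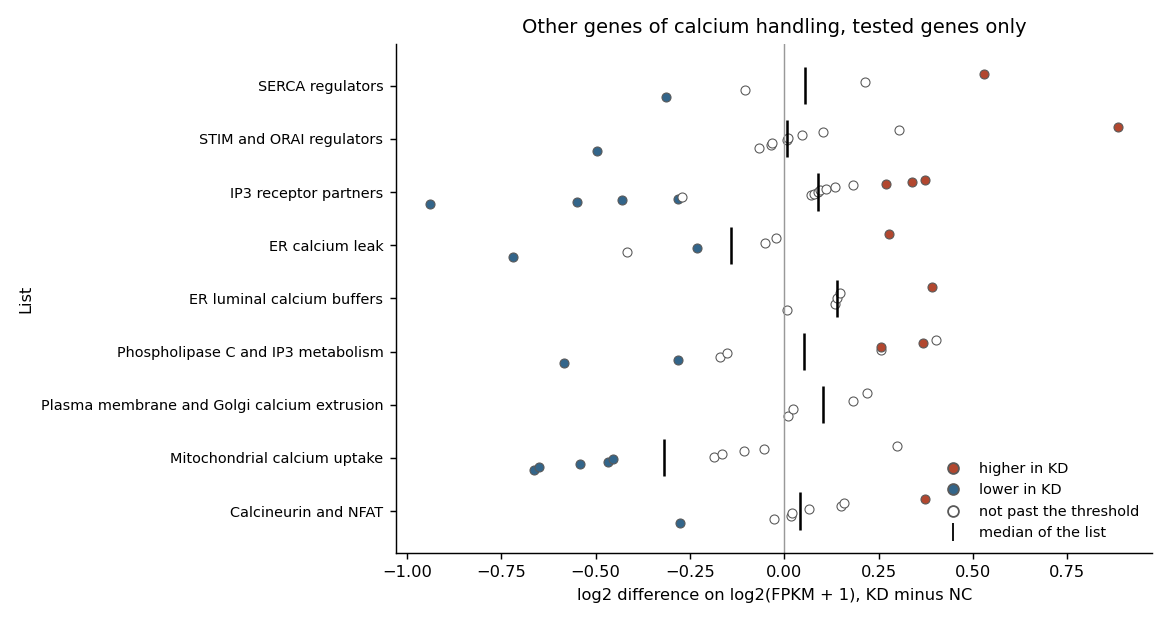
Log2 difference between KD and NC of tested genes in 9 lists of calcium handling, 1 point per gene, filled in color where the adjusted p is under 0.05, with a bar at each list's median. The mitochondrial uptake list has its median at -0.32 and 5 of 10 genes lower, beside 13.6% of all tested genes. The next lowest median is -0.14, of the ER leak list.

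Partners of the IP3 receptor moved both ways. Of 15 tested, 3 rose and 4 fell. Bok, a BCL2 family protein that binds IP3 receptors, averaged 6.99 ± 1.41 FPKM in KD and 14.2 ± 1.12 in NC (log2 difference -0.94, limma adjusted p = 0.00378), and Grina, a membrane protein of the TMBIM family, 74.7 ± 10.95 in KD and 109 ± 6.16 in NC. Ahcyl1, the IP3 receptor inhibitor called IRBIT, had 135 ± 10.6 FPKM in KD and 182 ± 1.98 in NC, and Rnf170, a ubiquitin ligase that acts on IP3 receptors, 3.26 ± 0.48 in KD and 2.28 ± 0.07 in NC. Without KD1 the counts were 5 higher and 5 lower, where 20.9% of all tested genes were higher and 21.5% lower. The counts were 1 and 3 without KD2, 1 and 2 without NC1, and 0 and 3 without NC2 or NC3. Of 6 genes on the ER leak list, Tmbim6, an ER membrane protein known to lower ER calcium, fell to 116 ± 6.06 FPKM in KD, against 192 ± 1.54 in NC (log2 difference -0.72, adjusted p = 0.000406), Sec61a1, the translocon pore, fell, and Pkd2, polycystin-2, rose (23.8 in KD and 19.4 in NC). Only 1 of these genes was lower and 0 were higher without KD2 or any NC library.

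Of 10 tested regulators of STIM and ORAI, Cracr2b rose to 2.31 ± 0.50 FPKM in KD, against 0.780 ± 0.08 in NC (log2 difference 0.88, limma adjusted p = 0.00572), and Esyt1, a tether between the ER and the plasma membrane, fell to 22.1 ± 1.22 FPKM in KD, against 31.6 ± 0.16 in NC (-0.50, adjusted p = 0.00197). Without KD1, 2 of these regulators were higher and 2 lower. Cracr2b passed the filter on low values through its KD level. Saraf, which slows store-operated entry, had 19.7 FPKM in KD and 20.1 in NC (adjusted p = 0.789). Of 5 tested luminal calcium buffers, Calr, calreticulin, rose (449 ± 47.6 FPKM in KD and 341 ± 7.97 in NC, adjusted p = 0.0186), a call lost without KD2 or any NC library. Buffers called higher numbered 2 without KD1 and 3 with voom. Of 8 genes for phospholipase C and IP3 turnover, Plcg1 and Plcd1 rose and Plcb4 (1.98 FPKM in KD and 3.44 in NC) and Inpp5a, which degrades IP3, fell, with 4 higher and 2 lower without KD1 and 0 higher without KD2, KD3, NC2 or NC3. The lower calls numbered 0 without NC2 and 1 without KD2 or NC3. Of 4 tested extrusion genes limma called 0 (1 without KD1 and 1 with voom), with Atp2b1, the main plasma membrane pump, at 13.1 FPKM in KD and 12.9 in NC, and Atp2c1, the Golgi pump, at 10.7 in KD and 9.33 in NC. Of 8 calcineurin and NFAT genes, the calcineurin regulator Rcan3 rose (11.7 in KD and 8.78 in NC) and the catalytic subunit Ppp3cc fell (4.28 in KD and 5.40 in NC). Ppp3cc was not called without KD2, KD3 or any NC library, nor by voom on all 6 libraries, where 2 genes of the list were higher and 0 lower, and without KD1 the list had 2 lower.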

How the data were processed

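Paired-end reads of total RNA were aligned with HISAT2 2.0.5, per the labels' protocols. The submitters' processing notes name mm10. No source used here names the counting tool, its use of strand or the annotation. The authors deposited FPKM for 54532 genes in 6 libraries, with gene lengths. FPKM times length came to whole multiples of 1 step per library for 100% of values (tolerance 0.01), which gave reads per gene. The library sizes implied by the deposited FPKM were 1.01 to 1.02 times the sums of these reads in KD and 0.987 to 0.996 times in NC. Voom used the sums.

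Groups came from the titles. The test on log2(FPKM + 1) was limma 3.58.1 (R 4.3.3) with group as the only term and an intensity trend, and voom on recovered reads was an alternative. The members, the lists and the rule for named genes were chosen with earlier results of these data known. Named genes were Calu, the members, up to 4 called genes per list with the largest change (or the 2 most abundant where none passed), and the 3 genes most like the member that changed most. Genes without reads, Saraf, Vdac1, Vdac3, Atp2a1 and the ryanodine receptors were named after their values were seen. Of the list symbols 5 were matched through another symbol and 1, Itprip, had no row.

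Annotated genes overlap 7 of the 10 members (15 genes, at most 27 reads each in a library). Positions of the members equal those in GENCODE M21. GC content came from the longest GENCODE M21 transcript. The code was tested on simulated data. Alternatives were pseudocounts of 0.1 and 5, no filter or 5 FPKM, median-of-ratios and quantile scaling, no trend, robust moderation, voom, a replicate block, chromosome medians removed, each library left out, and a GC and length trend removed, which was added after the data were seen. Summaries and figures were made in Python 3.11.15 with matplotlib 3.10.9 and pandas 2.3.3. A result for 1 gene of the mitochondrial list is not reported here.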

Additional observations from a re-analysis of the deposited data

How the results depend on the processing

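Itpr2 was lower in KD and past the threshold in the 17 alternatives that tested it, and no called member changed sign. Median-of-ratios scaling, counted among the 17, was no separate check, because its factor was 1.0037 in all 6 libraries. Members called numbered 1 higher and 2 lower, and higher calls became 0 with no filter or chromosome medians removed, 2 with quantile normalization, and 3 with voom (5 of 10 called, against 28.1% of all genes) or the GC and length trend removed. Lower calls became 0 at 5 FPKM, where Itpr1 and Itpr2 were not tested, and 1 with chromosome medians removed. Leaving out single libraries gave 0 to 2 higher and 1 to 3 lower members, 590 to 2572 higher and 923 to 2648 lower genes overall (2572 and 2648 without KD1), and 2 to 18 higher and 10 to 20 lower genes on the other lists. The GC and length trend removed gave 2269 higher genes. The ratio of Itpr1 over Itpr2 differed by 1.04 at a pseudocount of 0.1, 0.35 at 5 and 1.08 on recovered reads, that of Itpr2 over Itpr3 by -1.72, -0.72 and -1.78, and at 5 that of Itpr1 over Itpr3 by -0.37 and of Orai2 over Orai3 by -0.27. These ratios kept their sign, and a larger pseudocount draws low genes together by construction. Other causes were not tested.

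Same-numbered libraries deviated together weakly (correlations of 0.08, -0.04 and 0.15), and 3 of 6 libraries correlated best with their own number. No label says what a number marks, and whether the numbers pair the libraries was not established. With a replicate block 1050 genes were higher and 1383 lower, and 1 member was higher and 2 lower. Orai1, at 145 to 167 reads a library, has the least precise counts of the 10.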
